A study of Homo sapiens with 12 samples.

Results

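Cells of the human colorectal carcinoma line HCT-116 in which SHP2 had been silenced were compared, across genes, with HCT-116 cells pretreated with lovastatin. Both had received CPT-11 (irinotecan) for 24 h. The comparison was set by the columns of the deposited table and takes 3 silenced and 3 lovastatin libraries, 6 of the 12 in the series. The other libraries were 3 of wild-type cells given CPT-11 for 24 h and 3 of untreated wild-type cells, and serve here as reference levels. Lovastatin cells are labelled wild type, with a pretreatment of 4 h before CPT-11. Silenced cells carry a short hairpin RNA per their titles, and their genotype label reads SHP2-silenced. The treatment label of the silenced samples also names the 4 h of lovastatin, absent from both the sample titles and the description of treatments, so it is not settled whether they received it. Samples were grouped by title. Not given in the sources used here are the hairpin's sequence, the number of hairpins or clones and the drug doses. No group had a control hairpin or lovastatin alone, so the effect of silencing cannot be told apart from that of carrying a hairpin. The labels do not tie the 3 libraries of a group to separate cultures. The spread behind every p-value is therefore that of these libraries and may be technical. The design text of the series names chemotherapy and the STING pathway in colon cancer as its subject.

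SHP2, the product of PTPN11, is a tyrosine phosphatase that docks on activated receptors and adaptor proteins and promotes signalling through RAS to the kinase ERK. Lovastatin is a statin. It inhibits the mevalonate pathway, which makes cholesterol and the isoprenoid tails of RAS and other small GTPases. When sterols fall, SCAP escorts the membrane-bound SREBP factors to the Golgi, where they are cleaved, and they then switch on the genes of sterol synthesis and uptake. SREBP factors bind sterol response elements together with the factor NF-Y, which reads the CCAAT box. CPT-11 is converted in the body and in cells to an inhibitor of topoisomerase I, which leaves breaks in replicating DNA and activates p53.

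Among called protein-coding genes of at least 5 FPKM, the largest differences after PTPN11 were in the sterol genes HMGCS1 and INSIG1. Promoters of 4 genes of sterol control and synthesis are shown for the elements in them, as RefSeq sequence from 250 bases before to 50 bases after the start site. Capitals mark TCACNCCAC, a form of the sterol response element, in SREBF2 and the inverted CCAAT box ATTGG, read on either strand, in the others.
SREBF2 (GRCh38.p14, chr22:41832855-41833154, plus strand): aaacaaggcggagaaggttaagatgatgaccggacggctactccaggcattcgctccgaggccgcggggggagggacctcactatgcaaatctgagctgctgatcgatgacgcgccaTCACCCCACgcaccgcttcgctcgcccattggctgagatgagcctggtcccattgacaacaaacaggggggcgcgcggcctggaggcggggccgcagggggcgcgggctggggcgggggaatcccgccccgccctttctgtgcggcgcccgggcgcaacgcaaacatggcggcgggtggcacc
INSIG1 (GRCh38.p14, chr7:155297628-155297927, plus strand): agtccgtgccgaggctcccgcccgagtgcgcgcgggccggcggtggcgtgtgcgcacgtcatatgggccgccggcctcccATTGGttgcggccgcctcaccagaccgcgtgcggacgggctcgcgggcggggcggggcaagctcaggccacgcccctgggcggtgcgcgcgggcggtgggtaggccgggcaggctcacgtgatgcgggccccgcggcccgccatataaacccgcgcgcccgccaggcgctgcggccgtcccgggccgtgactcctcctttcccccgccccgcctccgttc
MSMO1 (GRCh38.p14, chr4:165327419-165327718, plus strand): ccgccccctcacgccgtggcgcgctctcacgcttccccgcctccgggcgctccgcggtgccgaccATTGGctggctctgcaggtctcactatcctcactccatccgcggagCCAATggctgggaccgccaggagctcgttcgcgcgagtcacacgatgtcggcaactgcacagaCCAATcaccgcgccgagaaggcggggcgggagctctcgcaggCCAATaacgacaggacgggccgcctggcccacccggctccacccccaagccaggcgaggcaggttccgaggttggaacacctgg
FDPS (GRCh38.p14, chr1:155308616-155308915, plus strand): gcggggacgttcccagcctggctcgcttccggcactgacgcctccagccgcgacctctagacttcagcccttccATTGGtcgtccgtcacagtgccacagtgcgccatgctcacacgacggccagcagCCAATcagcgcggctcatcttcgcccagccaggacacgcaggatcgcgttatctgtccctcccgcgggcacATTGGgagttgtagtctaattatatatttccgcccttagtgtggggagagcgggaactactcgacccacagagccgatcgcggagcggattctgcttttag
SREBF2 held the element 133 bases before its start. INSIG1 held 1 inverted CCAAT box, at -170, FDPS 3, at -176, -122 and -51, and MSMO1 4. Promoters of 11348 of the 17779 tested symbols were matched. Of these, 35.5% held ATTGG and 1.02% held TCACNCCAC on either strand. Among the 16 sterol enzymes with a matched promoter, 11 (68.8%) held ATTGG, and none held TCACNCCAC. Among 12 matched genes of SREBP regulation and lipid uptake, 6 held ATTGG and 1 held TCACNCCAC. These are matches of letters and not evidence of binding.

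The targeted gene was low in the silenced libraries. PTPN11 (ENSG00000179295, chromosome 12, 112418351 to 112509913, GRCh38) measured 43.4, 43.2 and 45.4 FPKM (reads per unit of gene length and library size, as scaled by the authors) with lovastatin. It measured 6.01, 6.54 and 7.15 FPKM with the hairpin. All 3 silenced libraries lay below all others. The difference, silenced minus lovastatin on the log2(FPKM + 1) scale used for every difference here, was -2.57 ± 0.07 (SE; limma with Benjamini-Hochberg adjustment, adjusted p = 4.2e-09). Residual PTPN11 reads were 646 to 812 per library, against 4878 to 5050.

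The 6 libraries held 14447847 to 16188305 reads assigned to genes. Of 18062 genes tested, 1235 (6.84%) passed an adjusted p of 0.05 in limma, 466 higher (2.58%) and 769 lower (4.26%) in silenced cells. In all 1235 the 3 silenced libraries lay wholly above or wholly below the 3 lovastatin libraries, as they did in 6412 genes (35.5%) in all. Most differences were small on the log2(FPKM + 1) scale. The median size among called genes was 0.39, and 12 genes were higher and 22 lower by at least 1 on that scale. The pseudocount of 1 makes these differences smaller than the change in FPKM, most of all in genes of low level. The 12 and 22 are therefore not counts of 2-fold changes in FPKM. Higher calls made up 37.7% of calls with the authors' scaling, 48.4% with scaling to library totals and 48.0% with totals that left out the 20 most counted genes. The count was 2438 (13.5%) when only the 6 libraries entered the fit and 2452 when CPT-11 library 3 was left out of it. It was 598 to 731 when 1 of the 6 was left out, lowest without silenced library 2. Called genes were 1102 of 13743 protein-coding genes (8.02%), 36 of 832 lincRNA genes (4.33%) and 36 of 1217 antisense genes (2.96%).

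**Figure D1:**
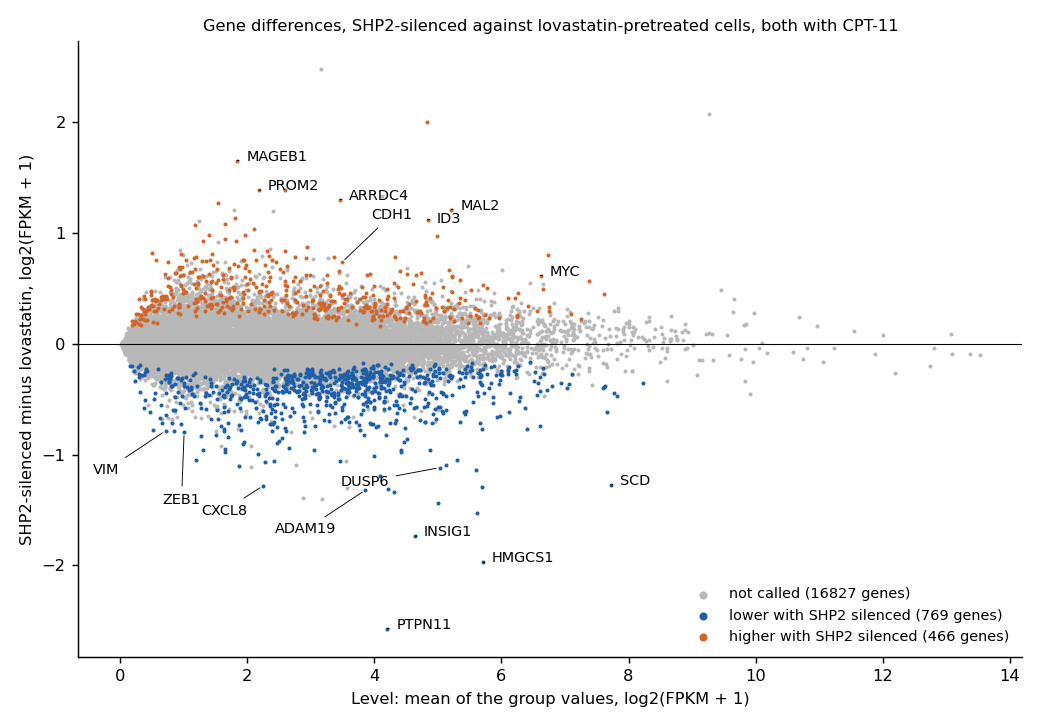
Each point is a tested gene. The horizontal axis gives its level, the mean of both group values in log2(FPKM + 1), and the vertical axis the silenced minus lovastatin difference on that scale. Blue points are the 769 genes called lower and orange points the 466 called higher in silenced cells. PTPN11 is lowest at -2.57, followed among called protein-coding genes of at least 5 FPKM by HMGCS1 at -1.97 and INSIG1 at -1.74.

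Properties of the libraries moved with the groups. Log2 values, taken relative to each gene's mean over all 12 libraries, rose with GC content in every one of the 6. This GC slope was 0.098 to 0.128 per 10 points of GC in silenced and 0.012 to 0.071 in lovastatin libraries. It compares libraries and does not show that levels themselves rise with GC content. Genes called higher had a median GC content of 53.04%, those called lower 44.95% and the remaining genes 48.87%. RN7SL2, an RNA component of the particle that guides secretory proteins, measured 1065 to 1469 FPKM in silenced and 227 to 346 FPKM in lovastatin libraries. RN7SL genes took 0.038 to 0.053% against 0.010 to 0.014% of reads. Ribosomal protein genes took 5.42 to 5.54% against 4.66 to 5.39%, and mitochondrial genes 7.32 to 7.51% against 7.502 to 7.69%. With 3 against 3 the exact permutation test cannot go below p = 0.1. Counts after a GC and length correction are given below for each list where the higher or lower count moved by 2 or more. Over all 18062 tested genes that correction called 978 higher and 1229 lower, against 466 and 769 without it. With the 6 libraries alone these were 1037 and 1401. List counts under these 2 fits therefore stand beside a larger share of calls over all genes than 6.84%. The part of RNA quality was not tested. CPT-11 library 3 differed from libraries 1 and 2 of its group, with a GC slope of 0.079 against -0.147 and -0.170. Its log2 values correlated with the lovastatin libraries at 0.9917 to 0.9930 and with libraries 1 and 2 of its own group at 0.9815 and 0.9771 (Pearson). Leaving it out therefore sets both arms beside the CPT-11 libraries least like them, of lower GC slope. Comparisons with CPT-11 are given with and without it. Of 9 colon epithelial markers 7 were tested, and the 9 summed to 559.8 to 588 FPKM with lovastatin and 565.1 to 577.2 FPKM with silencing, mostly KRT8, KRT18 and EPCAM. CDX1 had at most 1 read. Of 10 fibroblast, endothelial and blood markers 3 were tested, and the sum of the 10 was 5.138 to 5.743 against 5.629 to 6.398 FPKM, most of it COL1A1. PTPRC and CD3E reached at most 10 and 1 reads in any of the 6.

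Sterol synthesis genes were lower in silenced than in lovastatin cells along the whole pathway. Of the 11 enzymes from acetyl-CoA to lanosterol, 10 were lower, with a list median of -1.10 beside -0.0017 over all tested genes. These 10 calls held in each fit that left out 1 library and after the GC correction. HMGCS1, the HMG-CoA synthase (chromosome 5, 43289395 to 43313512), measured 105, 101 and 103 FPKM with lovastatin and 24.9, 25.5 and 25.8 FPKM with silencing. The difference was -1.97 ± 0.07 (adjusted p = 6.3e-08). CPT-11 alone gave 29.7, 31.2 and 25.2 FPKM, so the silenced libraries lay at or just under that level and the lovastatin libraries far above it. IDI1, which interconverts the isoprenoid building blocks, differed by -1.44 and FDPS, which makes farnesyl diphosphate, by -0.96. At the branch into sterols, FDFT1 (squalene synthase) differed by -1.29, SQLE (squalene epoxidase) by -0.68 and LSS (lanosterol synthase) by -0.96. MVK and MVD, which act on mevalonate, differed by -0.96 and -1.10, and ACAT2, the acetyl-CoA acetyltransferase of the first step, by -1.19. The exception was PMVK, the phosphomevalonate kinase, at 0.02.

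Of the 10 enzymes from lanosterol to cholesterol, 7 were lower, with a median of -0.70. MSMO1, which removes the methyl groups at carbon 4 of the sterol ring, measured 84.3, 82.5 and 79.7 FPKM with lovastatin and 29.8, 26.6 and 27.1 FPKM with silencing (-1.53 ± 0.06, adjusted p = 1.2e-07). SC5D, a sterol desaturase, differed by -1.06 and DHCR7, which makes cholesterol from its last precursor, by -1.05. NSDHL, EBP and HSD17B7 differed by -0.76, -0.70 and -0.70. HSD17B7 has a near-identical pseudogene, so its reads may be shared. The 3 members without a call were TM7SF2, CYP51A1 and LBR.

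Genes of sterol sensing and lipid uptake were lower in part. Of 14 tested, 7 were lower and 1 was higher, and 9 were lower after the GC correction. INSIG1, which retains SCAP in the endoplasmic reticulum and is itself an SREBP target, measured 44.9, 44.5 and 44.1 FPKM against 12.8, 13.7 and 11.6 FPKM (-1.74 ± 0.06, adjusted p = 6.3e-08). STARD4, a sterol carrier, differed by -1.31, LPIN1, a phosphatidate phosphatase, by -0.79, TMEM97 by -0.57 and NPC1, which exports cholesterol from lysosomes, by -0.44. MYLIP, a ubiquitin ligase that LXR induces, was higher by 0.34 (adjusted p = 0.036), a call that held in 1 of 6 fits that left out a library. SREBF2 measured 45.8, 46.3 and 43.9 FPKM against 39.3, 39.0 and 38.8 FPKM and differed by -0.21 ± 0.08 (adjusted p = 0.14). It passed with the 6 libraries alone (adjusted p = 0.011) and after the GC correction (-0.24, adjusted p = 0.0069). SREBF1 differed by -0.19 (adjusted p = 0.34) and passed after the GC correction (-0.26, adjusted p = 0.0033). None of 7 LXR genes, which respond to oxysterols, passed in limma, none had an unadjusted p under 0.05 and voom called none. In so short a list this lies near the 6.84% over all tested genes. ABCA1, the cholesterol efflux pump, differed by 0.19 (adjusted p = 0.27).

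Lipogenic genes followed in part, with 7 of 17 fatty acid genes lower. SCD, the stearoyl-CoA desaturase (chromosome 10), measured 319, 325 and 339 FPKM with lovastatin and 138, 134 and 133 FPKM with silencing (-1.28 ± 0.05, adjusted p = 6.3e-08). ACSS2, which makes acetyl-CoA from acetate, measured 29.9, 30.6 and 31.0 FPKM against 11.88, 12.04 and 10.44 FPKM and differed by -1.34. ACLY, which makes acetyl-CoA from citrate, differed by -0.46 and FADS1, a fatty acid desaturase, by -0.33. The acyl-CoA synthetases ACSL3 and ACSL4 differed by -0.52 and -0.59. FASN, the fatty acid synthase, differed by -0.44 (adjusted p = 0.020), and this call was lost in each fit that left out 1 of the 6 libraries. ACSL4 kept its call in 1 of 6 such fits. Of the 17, 9 were lower after the GC correction.

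Set beside CPT-11 alone, the sterol genes were high in the lovastatin arm and near the CPT-11 level in the silenced arm. Both arms share the same CPT-11 libraries, so their values are not independent. Of the 11 enzymes to lanosterol, 10 were called with lovastatin against CPT-11 alone, all higher (median 1.23), among 84 genes called in that comparison (0.465%). Silenced cells and CPT-11 alone differed in 2 of the 11, both higher (median 0.07), among 3974 called genes (22.0%). Without CPT-11 library 3, all 11 were higher with lovastatin (median 1.24), with 5455 genes called (30.2%). In silenced cells 8 of the 11 were then called, 5 higher and 3 lower (median 0.05), with 7849 genes called (43.5%). HMGCS1 differed from CPT-11 alone by 1.81 with lovastatin and by -0.16 with silencing (adjusted p = 0.11), and by 1.72 and -0.25 (adjusted p = 0.0016) without CPT-11 library 3. INSIG1 differed by 1.75 and 0.01, and by 1.71 and -0.02 without that library. The rise that lovastatin gave was thus not seen in the silenced libraries in these genes, whose treatment label also names lovastatin.

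**Figure D2:**
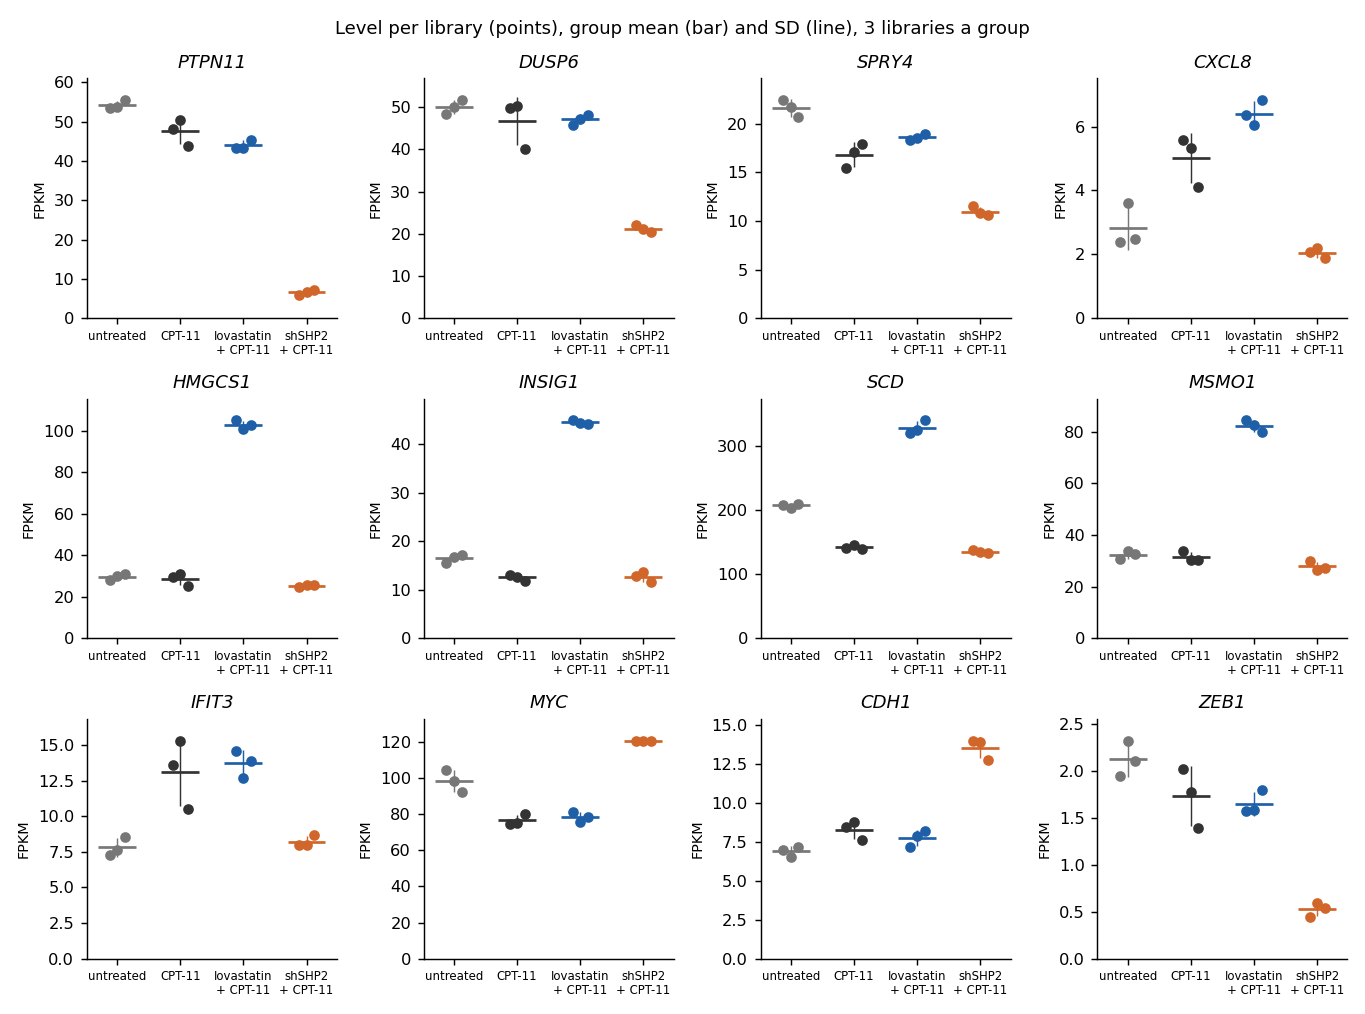
FPKM per library of 12 genes in the 4 groups, with 3 points, the mean as a bar and the SD as a line for each group, on linear axes that start at 0. HMGCS1, INSIG1, SCD and MSMO1 stand high only in the lovastatin group among these 4 groups, while PTPN11, DUSP6, SPRY4 and ZEB1 are lowest, and MYC and CDH1 highest, in the silenced group.

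Of 21 tested genes of prenylated proteins and small GTPase signalling, 4 were lower. Among these, NRAS, RHOB and RABGGTB, a subunit of the enzyme that prenylates Rab proteins, differed by -0.49, -0.42 and -0.26, with calls that held in 2, 2 and 1 of 6 fits that left out a library. RHOB was 126, 122 and 112 FPKM against 90.2, 92.9 and 85.6 FPKM. Among 11 KLF factors, of which KLF2 and KLF4 are known statin-induced genes, KLF6 (-0.54) and KLF10 (-0.30) were lower. KLF2 differed by -0.20 (adjusted p = 0.57) and passed as lower after the GC correction (-0.32, adjusted p = 0.019). KLF4 differed by -0.06 (adjusted p = 0.84).

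Feedback genes of the ERK pathway, which ERK activity induces, were lower in silenced cells: 9 of 22 passed, with a list median of -0.27. DUSP6, the cytoplasmic ERK phosphatase (chromosome 12, 89347232 to 89353271), measured 45.9, 47.3 and 48.3 FPKM with lovastatin and 21.99, 21.23 and 20.32 FPKM with silencing (-1.12 ± 0.08, adjusted p = 1.2e-05). CPT-11 alone gave 49.8, 50.3 and 40.1 FPKM, so here the lovastatin libraries lay within the range of CPT-11 and the silenced libraries below it, the reverse of the sterol genes. SPRY4, a Sprouty inhibitor of RAS signalling, measured 18.4, 18.5 and 19.0 FPKM against 11.5, 10.8 and 10.6 FPKM (-0.72 ± 0.06, adjusted p = 5.3e-05). DUSP4, the nuclear ERK phosphatase, differed by -0.64, the ETS factors ETV1 and ETV5 by -0.70 and -0.59, and PHLDA1 by -0.60. CCND1, which encodes cyclin D1, differed by -0.40 and IER3 by -0.38. EPHA2 differed by -0.33, a call that was lost in each fit that left out 1 library, and 8 of the 9 held in all of them. DUSP5 measured 81.3, 75.9 and 75.2 FPKM against 88.0, 84.4 and 76.2 FPKM (0.09, adjusted p = 0.58). ETV4 (-0.14, adjusted p = 0.54) and SPRY2 (-0.30, adjusted p = 0.17) did not pass either. Against CPT-11 alone, 13 of the 22 were called in silenced cells, 10 lower and 3 higher, where 22.0% of all tested genes were called. With lovastatin none of the 22 was called, where 0.465% were. The list median was -0.16 with silencing and 0.10 with lovastatin. Without CPT-11 library 3, 14 were called with silencing, 10 lower and 4 higher, where 43.5% of all tested genes were called. With lovastatin 7 were then called, all higher, near the 30.2% called over all tested genes. The medians were then -0.22 and 0.12.

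Of 16 AP-1 and immediate early genes 1 passed (6.25%), a share near the 6.84% over all tested genes, and it was higher. This gene, MYC, the growth-promoting transcription factor, measured 81.0, 75.6 and 78.4 FPKM with lovastatin and 120.4, 120.5 and 120.8 FPKM with silencing (0.62 ± 0.05, adjusted p = 6.9e-05). CPT-11 alone gave 76.7 ± 3.00 FPKM and untreated cells 98.3 ± 6.08, so the silenced libraries exceeded both. FOSL1 differed by -0.10 (adjusted p = 0.70), FOS by -0.20 (0.41) and EGR1 by -0.40 (0.11). After the GC correction 2 of the 16 were higher and 5 lower, where 978 and 1229 of all 18062 tested genes were. Among 13 SHP2 docking partners, besides PTPN11, the ubiquitin ligase CBL was lower (-0.41) and the insulin receptor substrate IRS1 higher (0.35, held in 4 of 6 fits that left out a library).

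Of 14 genes of the ERBB receptors, their ligands and inhibitors, 4 were lower in silenced cells, 3 of them ligands. EREG (epiregulin) measured 89.0, 91.6 and 93.5 FPKM with lovastatin and 62.9, 65.1 and 68.1 FPKM with silencing (-0.48 ± 0.08, adjusted p = 0.0035). TGFA differed by -0.45 and ERRFI1, a feedback inhibitor of the receptor, by -0.36. HBEGF differed by -0.39 (adjusted p = 0.045), and its call held in 1 of 6 fits that left out a library. AREG (amphiregulin), the most abundant of these ligands per length at 226, 210.1 and 214 FPKM against 197, 188 and 177 FPKM, missed the threshold (-0.21, adjusted p = 0.067). It passed with the 6 libraries alone (adjusted p = 0.044) and after the GC correction (adjusted p = 0.017). The ligand genes BTC, EGF, NRG1 and NRG4 had no call.

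Among 22 genes of YAP and TAZ, the coactivators that respond to cell shape and tension, 6 were lower. WWTR1, which encodes TAZ, measured 12.8, 13.0 and 13.7 FPKM against 7.68, 7.62 and 7.69 FPKM (-0.71 ± 0.07, adjusted p = 0.00010). YAP1 differed by -0.35 and the kinase gene LATS2 by -0.39. Of the targets, NT5E (the ectonucleotidase CD73) measured 28.1, 30.1 and 29.3 FPKM against 14.21, 14.96 and 13.73 FPKM and differed by -0.98, and CTGF differed by -0.91. AMOTL1 differed by -0.24, with its call in 1 of 6 fits that left out a library. CYR61, a defining YAP target, measured 12.1, 11.9 and 10.8 FPKM against 11.2, 10.7 and 9.80 FPKM (-0.12, adjusted p = 0.38). The targets thus did not move as 1 group, and 3 of the 22 were higher after the GC correction.

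The cGAS-STING pathway, the subject of the series, showed no call between the arms with all 12 libraries in the fit. Of 18 tested genes of DNA and RNA sensing none passed in limma, 2 had an unadjusted p under 0.05 and voom called 1. For a list of this size, none called lies near the 6.84% over all tested genes. With the 6 libraries alone, and also without CPT-11 library 3, 2 were lower, and after the GC correction 1 was. TMEM173, which encodes STING (chromosome 5), measured 11.2, 10.8 and 10.1 FPKM with lovastatin and 11.1, 11.7 and 11.6 FPKM with silencing (0.10 ± 0.09, adjusted p = 0.61), with overlapping groups. CGAS, the sensor itself, had 5 reads or fewer in every library, and IFNB1 (interferon beta) 9 or fewer, so neither was tested and no difference was detectable at this depth. DDX58, which encodes the RNA sensor RIG-I, measured 12.2, 13.6 and 13.6 FPKM against 9.01, 9.13 and 10.1 FPKM. The groups did not overlap, and the difference of -0.44 ± 0.14 did not pass (adjusted p = 0.083), but passed with the 6 libraries alone (adjusted p = 0.0064) and after the GC correction (adjusted p = 0.034). IFIH1, which encodes the RNA sensor MDA5, differed by -0.35 (adjusted p = 0.19, and 0.0497 with the 6 libraries alone). The kinase TBK1 and the factor IRF3, which STING activates, differed by -0.24 and 0.01, without a call.

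Part of the interferon-stimulated genes was lower in silenced cells, 6 of 35, with a list median of -0.04. IFIT3, of the interferon-induced RNA-binding IFIT family (chromosome 10), measured 14.6, 12.7 and 13.8 FPKM with lovastatin and 7.99, 7.99 and 8.64 FPKM with silencing (-0.68 ± 0.11, adjusted p = 0.0043). CPT-11 alone gave 13.56, 15.30 and 10.53 FPKM and untreated cells 7.82 ± 0.65, so the silenced libraries lay near the untreated level. IFIT2 (-0.63) and IFIT1 (-0.57) differed in the same way, and OASL, an antiviral protein of the OAS family, by -0.48. OASL reached 24.7, 23.6 and 23.0 FPKM with lovastatin, above the 17.8 ± 0.69 of CPT-11 alone, and 16.4, 16.1 and 17.9 FPKM with silencing. ISG20 (-0.36) and HERC5 (-0.25) lost their calls in each fit that left out 1 library. ISG15, the ubiquitin-like modifier, was abundant in both arms at 416, 403 and 357 FPKM against 379, 395 and 371 FPKM and did not differ beyond its spread (-0.04 ± 0.17, adjusted p = 0.93). The list thus did not move as a whole, and 8 members were lower with the 6 libraries alone and 9 after the GC correction.

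Inflammatory genes held larger differences, with 6 of 23 NF-kB targets and cytokines lower and 1 higher. CXCL8 (interleukin 8, chromosome 4), a neutrophil attractant, measured 6.35, 6.04 and 6.83 FPKM with lovastatin and 2.07, 2.19 and 1.88 FPKM with silencing (-1.28 ± 0.13, adjusted p = 0.00017). CPT-11 alone gave 5.59, 5.34 and 4.12 FPKM and untreated cells 2.83 ± 0.68. BIRC3, an inhibitor of apoptosis that NF-kB induces, measured 4.06, 4.29 and 4.41 FPKM against 2.24, 1.80 and 1.51 FPKM (-0.89). LIF, a cytokine of the interleukin 6 family, differed by -0.69, CCL5, a T cell attractant, by -0.74, CXCL3 by -0.65 and NFKBIA, the NF-kB inhibitor, by -0.48. CCL5 lost its call without lovastatin library 3. CXCL16, a transmembrane chemokine, was higher at 25.7, 24.8 and 26.1 FPKM against 16.7, 15.6 and 15.2 FPKM (0.65 ± 0.08, adjusted p = 0.00078). CXCL10, a classical interferon-induced chemokine, was low and variable at 0.72 to 2.47 FPKM in the 6 libraries (-0.37, adjusted p = 0.26).

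Antigen presentation genes had no call, and some ligands seen by natural killer and T cells were lower. None of 19 presentation genes passed in limma, which for a list of this size lies near the 6.84% over all tested genes. Of the 19, 5 had an unadjusted p under 0.05 and voom called 1. With the 6 libraries alone, without CPT-11 library 3 and after the GC correction, 1 of the 19 was lower. TAP1, a peptide transporter, differed by -0.11 (adjusted p = 0.58), HLA-E by -0.14 (0.15) and NLRC5, the activator of class I genes, by 0.23 (0.092). HLA-E passed after the GC correction (-0.16, adjusted p = 0.011). Of 15 ligands 5 were lower, and these calls held in every fit that left out 1 library. MICA, a stress ligand of the receptor NKG2D, measured 28.5, 28.9 and 29.9 FPKM with lovastatin and 19.8, 18.8 and 18.9 FPKM with silencing (-0.58 ± 0.06, adjusted p = 0.00024). The lovastatin libraries also lay above CPT-11 alone, at 19.9 ± 0.74 FPKM. MICB differed by -0.54 and ULBP2, another such ligand, by -0.40. MICA and MICB are close in sequence and may share reads. CD274, which encodes PD-L1, measured 1.91, 2.33 and 1.66 FPKM against 1.07, 1.10 and 0.80 FPKM (-0.58 ± 0.10, adjusted p = 0.0054). PVR, a ligand of DNAM-1 and TIGIT, differed by -0.29.

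**Figure D3:**
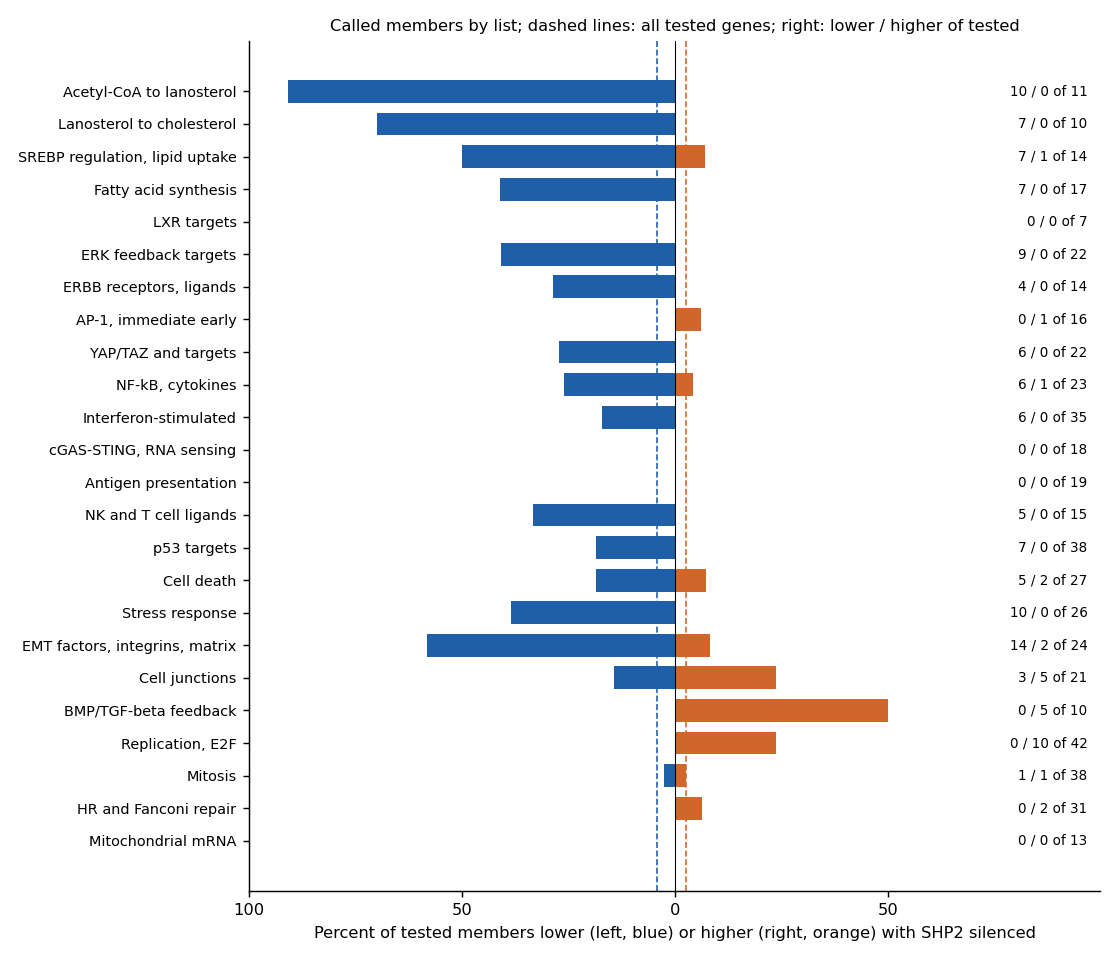
Percent of the tested members of 24 lists called lower (blue, left) or higher (orange, right) in silenced cells, with the counts at the right edge. The dashed lines mark the shares over all tested genes, 4.26% lower and 2.58% higher. The 2 lists of sterol synthesis reach furthest to the left and the BMP feedback list furthest to the right.

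Of 38 p53 targets 7 were lower in silenced cells, with a list median of -0.14. CDKN1A, which encodes p21, measured 704, 679 and 636 FPKM with lovastatin and 596, 606 and 626 FPKM with silencing, against 151 ± 7.5 FPKM in untreated cells. Its difference of -0.14 did not pass (adjusted p = 0.37), nor did that of MDM2, the p53 ubiquitin ligase (-0.14, adjusted p = 0.50). Among the 7, TP53INP1 differed by -0.71, the death gene PMAIP1 (NOXA) by -0.58, the antiproliferative gene BTG2 by -0.54 and ZMAT3, an RNA-binding protein, by -0.53. TNFRSF10D and TNFRSF10B, receptors for the death ligand TRAIL, differed by -0.46 and -0.25, and the latter was called in no fit that left out a library. GDF15, a stress cytokine, measured 465, 435 and 404 FPKM against 355, 339 and 338 FPKM and passed with the 6 libraries alone (-0.33, adjusted p = 0.28, and 0.018). With the 6 libraries alone, 12 of the 38 were lower, and 11 after the GC correction.

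Among 27 regulators of cell death, 5 were lower and 2 higher. The inhibitors XIAP (-0.37) and BIRC2 (-0.40), the survival gene MCL1 (-0.28) and the kinase gene RIPK1 (-0.44) were among those lower. BIRC5 (survivin, 0.40) and BAD (0.41) were higher. MCL1 and XIAP kept their calls in all 6 fits that left out a library, and BIRC2 and BIRC5 in none of them. RIPK1 kept its call in 2 and BAD in 1.

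Genes of DNA replication were higher in silenced than in lovastatin cells by small amounts. Of 42 tested 10 were higher, with a list median of 0.18, and 34 of the 42 had a positive difference. MCM6, a subunit of the replicative helicase, measured 19.4, 18.4 and 20.1 FPKM with lovastatin and 29.2, 30.6 and 31.2 FPKM with silencing (0.62 ± 0.06, adjusted p = 0.00022). The other helicase subunits MCM2, MCM3, MCM4, MCM5 and MCM7 differed by 0.23 to 0.35. TK1, the S-phase thymidine kinase, measured 145, 131 and 130.1 FPKM against 202, 204 and 196 FPKM (0.56, adjusted p = 0.016). UHRF1, which maintains DNA methylation, differed by 0.34, ORC1 by 0.26 and CDC45 by 0.22. The count was 2 to 5 when 1 of the 6 libraries was left out, lowest without silenced library 2 or 3 or lovastatin library 2 or 3. It was 19 with the 6 libraries alone, 21 without CPT-11 library 3 and 23 after the GC correction, so its size rests on these choices. MCM6 kept its call throughout. Against CPT-11 alone, 10 of the 42 were lower and 3 higher with silencing (median -0.08), where 22.0% of all tested genes were called. With lovastatin 3 were lower and none higher (median -0.18), where 0.465% were called. Without CPT-11 library 3, 16 were lower and 11 higher with silencing (median -0.10, 43.5% called). With lovastatin 23 were then lower and 2 higher (median -0.21, 30.2% called). The median of both arms thus lay below CPT-11 alone.

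Shares called among mitotic, repair and checkpoint genes lay near or under the 6.84% over all tested genes. Of 38 mitotic genes 2 were called (5.26%). MYBL2, an E2F target that drives mitotic genes, was higher (0.49) and ANLN, a cytokinesis protein, was lower (-0.48, with no call in any fit that left out a library). In homologous recombination and Fanconi repair, EXO1 (0.30) and FANCD2 (0.24) were higher among 31 (6.45%), and CHEK2 (0.25) among 21 checkpoint genes (4.76%). Each of these 3 lost its call in each fit that left out 1 library. After the GC correction 7 of the 31 and 3 of the 21 were higher, where 978 of all 18062 tested genes were, against 466 without it. TOP1, the target of CPT-11, measured 76.6, 80.0 and 83.1 FPKM against 70.9, 69.7 and 72.0 FPKM (-0.17, adjusted p = 0.30, and 0.036 with the 6 libraries alone). CES2, which activates CPT-11, differed by -0.10 (adjusted p = 0.38). ABCC2, an efflux pump for its metabolites, was higher at 28.6 ± 0.52 FPKM against 19.3 ± 0.85 FPKM (SD, n = 3), with no overlap (0.54 ± 0.07, adjusted p = 0.0012). ABCB1, another pump, was lower (-0.30), a call lost in 5 of 6 fits that left out a library and after the GC correction. ABCG2 differed by 0.01 (adjusted p = 0.96).

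Stress response genes were lower in silenced cells, 10 of 26, with a list median of -0.24. SLC7A11, the cystine transporter, measured 8.19, 8.80 and 9.24 FPKM with lovastatin and 4.27, 4.57 and 5.03 FPKM with silencing (-0.79 ± 0.07, adjusted p = 5.2e-05). ATF4, the factor at the centre of the integrated stress response, differed by -0.38 and CHAC1, an ATF4 target that degrades glutathione, by -0.75. PPP1R15A, which restarts translation, differed by -0.41 and CEBPG by -0.34. Of the chaperones and factors of the endoplasmic reticulum, DNAJB9 differed by -0.62, HSPA5 (BiP) by -0.36, HERPUD1 by -0.31 and XBP1 by -0.26. PSAT1, of serine synthesis, differed by -0.25. HSPA5 and PSAT1 kept their calls in 2 of 6 fits that left out a library and XBP1 in 1. ATF3 (0.11, adjusted p = 0.28) and DDIT3 (-0.42, adjusted p = 0.092) did not pass. After the GC correction 13 of the 26 were lower. GCLM, which makes glutathione, was the 1 gene called among 16 of iron and glutathione handling and differed by -0.43. That share, 6.25%, lay near the 6.84% over all tested genes.

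In glucose handling, 2 of 11 genes were higher. ARRDC4, an arrestin that limits glucose uptake and responds to sugar, measured 5.89, 5.88 and 6.25 FPKM with lovastatin and 16.6, 17.1 and 15.2 FPKM with silencing (1.303 ± 0.10, adjusted p = 2.1e-05). HK2 (hexokinase 2) differed by 0.63. The glucose transporter SLC2A3 was lower (-0.41, held in 1 of 6 fits that left out a library). After the GC correction 5 of the 11 were higher and 2 lower.

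Genes of the mesenchymal state, integrins and matrix were lower in silenced cells, 14 of 24, with a list median of -0.34, and 2 were higher. ZEB1, a repressor of epithelial genes (chromosome 10), measured 1.58, 1.58 and 1.79 FPKM with lovastatin and 0.45, 0.59 and 0.54 FPKM with silencing (-0.80 ± 0.09, adjusted p = 0.00045). VIM (vimentin), the mesenchymal filament, measured 1.20, 1.24 and 1.03 FPKM against 0.33, 0.20 and 0.23 FPKM (-0.79). Both are low genes, so the pseudocount of 1 understates their change, and VIM may share reads with its antisense gene. SNAI2 (-0.35) and SPARC (-0.34) were also low. The protease receptor PLAUR differed by -0.59, its ligand PLAU by -0.43 and the transglutaminase TGM2 by -0.56. Integrin genes ITGA2, ITGA3, ITGA5, ITGA6 and ITGAV differed by -0.31 to -0.52, and L1CAM by -0.42. LAMB3 (0.33) and COL17A1 (0.30), of the epithelial anchoring complexes, were higher. When 1 library was left out, 9 or 10 of the 24 were lower, and SNAI2, SPARC, ITGA6, LAMB3 and COL17A1 had no call in any such fit. The lowest count, 9, was without silenced library 3 or lovastatin library 2.

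Cell junction genes moved both ways, 5 of 21 higher and 3 lower. CDH1, which encodes E-cadherin (chromosome 16, 68737225 to 68835548), measured 7.15, 7.85 and 8.19 FPKM with lovastatin and 13.98, 13.87 and 12.77 FPKM with silencing (0.74 ± 0.07, adjusted p = 0.00013). CPT-11 alone gave 8.28 ± 0.60 FPKM, so only the silenced libraries were high among the treated groups. EPCAM, an epithelial adhesion molecule, measured 64.4, 63.5 and 62.0 FPKM against 81.0, 85.3 and 87.8 FPKM (0.41). CLDN7 (0.67), TJP3 (0.45) and JUP (0.30) were higher, and the desmosomal DSG2 (-0.37) and DSC2 (-0.44) and the claudin CLDN12 (-0.47) lower. CDH1 and EPCAM kept their calls when any 1 library was left out, JUP, CLDN7, CLDN12 and DSC2 kept theirs in 1 of 6 such fits, TJP3 in 3 and DSG2 in none. After the GC correction 7 of the 21 were higher and 5 lower.

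Further epithelial genes were listed after their values had been seen, so their counts describe and support nothing. Of 32, 23 were higher and 1 lower, with a median of 0.53. MAL2, an apical transport protein, measured 22.2, 23.5 and 24.4 FPKM with lovastatin and 56.5, 57.0 and 52.8 FPKM with silencing (1.21 ± 0.06, adjusted p = 8.3e-07). PROM2, a membrane protein of protrusions, measured 1.62, 2.11 and 1.71 FPKM against 6.51, 6.80 and 5.73 FPKM (1.39). AP1M2, the epithelial clathrin adaptor, measured 22.6, 20.2 and 22.3 FPKM against 41.6, 43.0 and 46.0 FPKM (0.97). S100A14 (0.80), RAB25 (0.57) and ST14 (0.61) were higher too. So were the epithelial transcription factors GRHL2 (0.85) and OVOL1 (0.76) and the splicing factors ESRP1 (0.42) and ESRP2 (0.33, called in no fit that left out a library). The exception was EHF, an epithelial ETS factor, at 6.31, 7.01 and 6.88 FPKM against 2.64, 2.74 and 2.75 FPKM (-1.06 ± 0.07, adjusted p = 1.0e-05). CLDN4 differed by -0.10 (adjusted p = 0.73).

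Promoters of 2 of these epithelial genes are shown because the E-box CAGGTG, which ZEB and SNAI repressors are known to bind, recurs in them. Capitals mark it on either strand.
CLDN7 (GRCh38.p14, chr17:7262429-7262728, minus strand): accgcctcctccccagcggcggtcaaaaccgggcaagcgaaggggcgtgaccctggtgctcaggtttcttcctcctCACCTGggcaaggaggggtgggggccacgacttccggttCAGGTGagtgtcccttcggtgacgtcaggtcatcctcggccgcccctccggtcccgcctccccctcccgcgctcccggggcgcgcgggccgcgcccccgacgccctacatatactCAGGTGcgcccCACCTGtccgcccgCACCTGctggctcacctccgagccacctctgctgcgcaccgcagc
AP1M2 (GRCh38.p14, chr19:10587263-10587562, minus strand): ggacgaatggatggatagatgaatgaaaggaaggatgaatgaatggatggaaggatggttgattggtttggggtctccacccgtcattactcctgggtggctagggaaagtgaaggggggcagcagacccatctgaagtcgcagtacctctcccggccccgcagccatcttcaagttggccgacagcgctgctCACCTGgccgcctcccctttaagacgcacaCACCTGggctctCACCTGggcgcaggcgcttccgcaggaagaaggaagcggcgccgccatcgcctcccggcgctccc
CLDN7 held 5 copies, among them at -174, -135 and -20, and AP1M2 held 3, at -57, -27 and -15. Of the epithelial genes 18 had a matched promoter and 9 of them held CAGGTG, as did 19.3% of all matched promoters. The motif was chosen after the values were seen, and whether a repressor binds there was not tested.

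**Figure D4:**
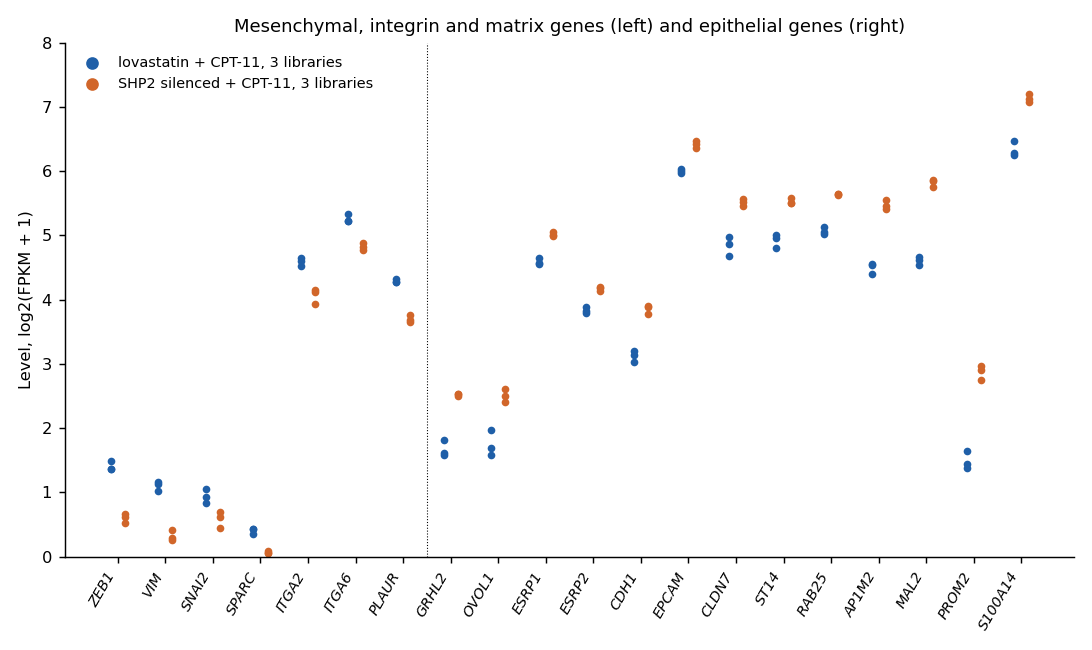
Level in log2(FPKM + 1) of 7 mesenchymal, integrin and matrix genes (left of the dotted line) and 13 epithelial genes (right) in each of the 3 lovastatin (blue) and 3 silenced (orange) libraries. Every gene on the left is lower and every gene on the right higher in the silenced libraries, with no overlap between the groups. The genes were chosen for display from those called in these directions, so the shared direction and lack of overlap follow from the choice. Called members that went the other way are not shown: LAMB3 and COL17A1 were higher, and EHF, DSG2, DSC2 and CLDN12 lower.

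Feedback genes of BMP and TGF-beta signalling were higher in silenced cells, 5 of 10, with a list median of 0.25. ID3, an inhibitor of differentiation that BMP induces, measured 22.3, 17.1 and 16.1 FPKM with lovastatin and 40.9, 40.7 and 41.6 FPKM with silencing (1.12 ± 0.18, adjusted p = 0.0038). The ligand BMP4 measured 44.4, 42.7 and 39.9 FPKM against 60.6, 60.6 and 63.8 FPKM (0.53). The pseudoreceptor BAMBI (0.57), the inhibitor SMAD7 (0.56) and ID2 (0.31) were higher, SMAD7 in 3 of 6 fits that left out a library. Of 14 Wnt and stem cell genes, SOX9, a crypt transcription factor, measured 76.3, 77.8 and 80.3 FPKM against 51.3, 49.4 and 47.3 FPKM (-0.65). RNF43, which removes Wnt receptors, was lower (-0.66), and the secreted Wnt inhibitor DKK1 higher (0.45). Of the 14, 4 were lower after the GC correction. None of 9 colon identity genes passed in limma, 3 had an unadjusted p under 0.05 and voom called none. Over all tested genes 6.84% passed.

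The remaining protein-coding genes among the 12 largest differences in either direction, all at 5 FPKM or more in the higher group, belong to none of the lists above. ADAM19, a membrane protease, measured 21.1, 21.9 and 22.8 FPKM with lovastatin and 8.79, 8.55 and 7.24 FPKM with silencing (-1.32 ± 0.07, adjusted p = 1.3e-06). MAGEB1, a cancer-testis antigen on the X chromosome, measured 1.15, 0.88 and 1.03 FPKM against 4.94, 5.87 and 5.28 FPKM (1.66 ± 0.10, adjusted p = 6.5e-06). BDNF, the neurotrophin, differed by 0.83, ZBED2 by 0.79 and LCE1F, of the late cornified envelope family, by 1.39. CYSRT1 differed by 0.78 (adjusted p = 0.044), a call lost in 5 of 6 fits that left out a library.

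For these genes too the arms can be set beside CPT-11 alone, with shared CPT-11 libraries. ADAM19 differed from CPT-11 by 0.00 with lovastatin and -1.32 with silencing, MAL2 by -0.15 and 1.06, MYC by 0.03 and 0.65, and CDH1 by -0.09 and 0.65. Without CPT-11 library 3 the values were 0.03 and -1.29 for ADAM19, -0.20 and 1.01 for MAL2, 0.06 and 0.68 for MYC, and -0.14 and 0.60 for CDH1. CXCL8 differed by 0.31 and -0.98, or 0.19 and -1.09 without that library, and IFIT3 by 0.07 and -0.60, or -0.07 and -0.74. In these 6 genes the silenced arm lay further from CPT-11 alone than the lovastatin arm did, and in HMGCS1 and INSIG1 the lovastatin arm did.

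**Figure D5:**
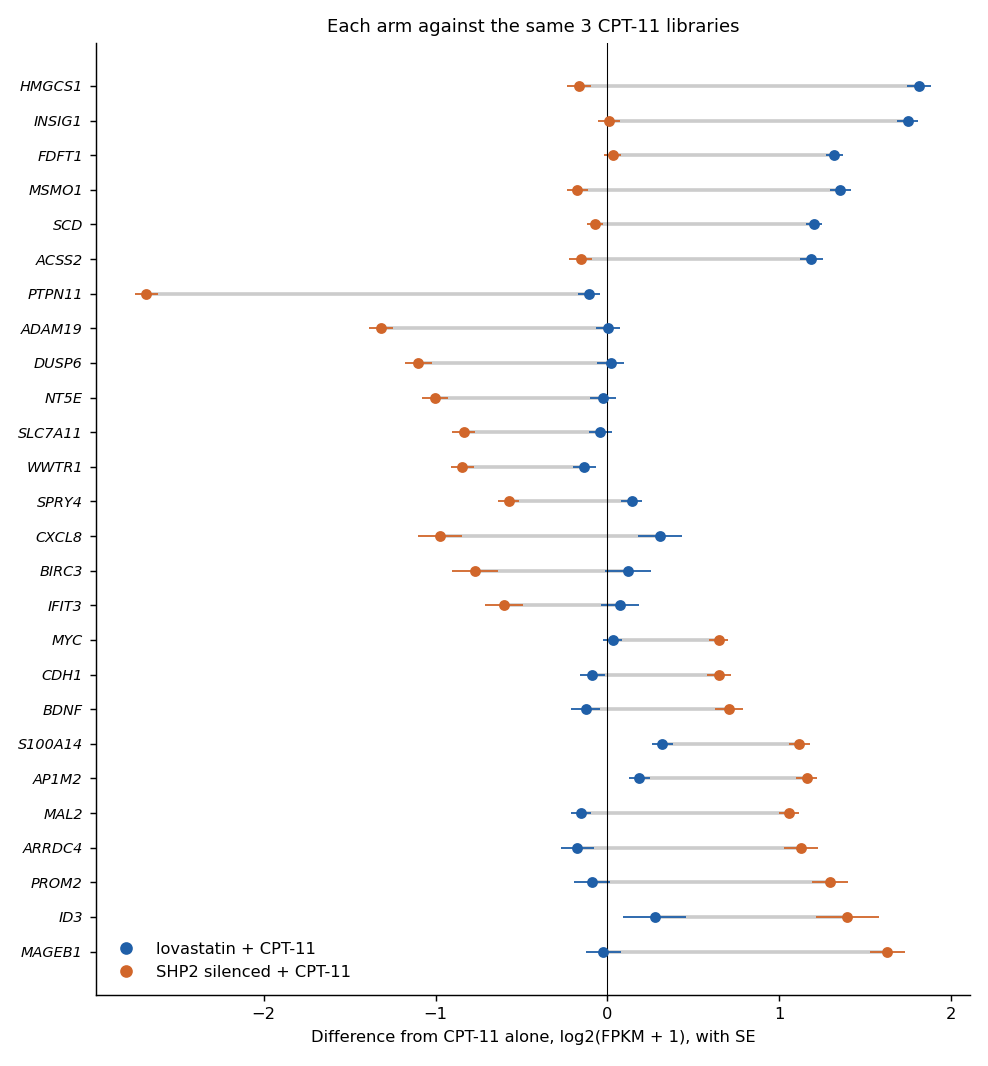
Difference of each arm from CPT-11 alone, in log2(FPKM + 1) with the SE, for 26 genes. Blue points are lovastatin and orange points silenced cells, and grey lines join both values of a gene. In the sterol and lipid genes at the top the blue point lies at 1.19 or more and the orange point between -0.17 and 0.03, and from PTPN11 downward the orange point lies farther from 0.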

How the data were processed

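Total RNA (Trizol) of HCT-116 cells was sequenced after NEBNext Ultra library preparation, per the labels' protocols. The deposited table gives FPKM for 59172 features in 12 libraries. The submitters' processing notes list hg19 as build and, as tools with no stated role, DESeq2 1.16.1, featureCounts 1.5.0-p3, StringTie 1.3.3b and HISAT2 2.0.5, but all 58735 Ensembl features carried the GRCh38 positions of GENCODE 29, which are used here. Not given in the sources used here are the settings for strand, multiple mapping and overlap. Reads of near-identical, overlapping and antisense genes therefore cannot be told apart. Each deposited FPKM value times gene length, divided by a factor fitted for each library, was a whole number of reads (100% within 0.01). The authors' scaling followed median-of-ratios size factors, so a shift of all genes together cannot be seen.

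Differences were computed on log2(FPKM + 1) with limma 3.58.1 (R 4.3.3), with a variance trend, from the authors' FPKM. The model held 12 libraries, with 1 mean for each group and without a replicate block. A gene was tested if at least 3 libraries had 10 reads or more (scaled to a median library) and the total was at least 15. The p-values were Benjamini-Hochberg adjusted over all tested genes, with a threshold of 0.05. The comparison, the 36 gene lists and the genes named were chosen with earlier results of these data known. Named genes are PTPN11, the 12 largest called differences each way among protein-coding genes of at least 5 FPKM without overlap, for each list up to 4 called members by smallest p (2 if none was called), and a fixed set. Other members of a list are named with its counts, and were chosen after their values were seen. Some members of these lists and named genes are not reported here. Leaving out each of the 6 libraries, other scalings, filters and pseudocounts, voom on recovered reads, a replicate block and a GC and length correction were the alternatives.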

Additional observations from a re-analysis of the deposited data

How the results depend on the processing

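Genes called in all, higher and lower were 1235, 466 and 769. They were 2438, 1037 and 1401 with the 6 libraries alone, 2452, 1007 and 1445 without CPT-11 library 3 in the fit, and 2207, 978 and 1229 with the GC and length correction. With the replicate number as a block they were 767, 263 and 504, and with block and correction 737 were higher. Without the filter 271 were higher. Leaving out 1 library gave 598 to 731 in all, 191 to 270 higher and 403 to 481 lower. Higher replication genes numbered 10, and 19 with the 6 libraries, 21 without CPT-11 library 3, 3 with the block, 17 with block and correction, 23 with the correction, 5 without the filter and 2 to 5 with 1 library left out. Lower mesenchymal and matrix genes numbered 14, and 9 to 10 with 1 library left out. Fewer samples enter those fits. The cause of the other changes was not tested. Deviations of same-numbered libraries from their group means had correlations of -0.013, 0.007 and 0.056 across genes. The GC slope fell with the library number in both groups. It was 0.128, 0.111 and 0.098 in silenced and 0.071, 0.054 and 0.012 in lovastatin libraries. Whether same-numbered libraries were handled together was not tested. Of 115 named calls, 90 held under all 19 alternatives and none reversed. Among genes without a call, HLA-B turned from -0.01 to 0.019 with library totals, 0.016 with totals without the 20 most counted genes and ranged from -0.0524 to 0.0412 without 1 library. Ranges without 1 library were -0.1023 to 0.0081 for ISG15 and -0.0712 to 0.0688 for ABCG2. Depth limited CGAS, IFNB1 and ANKRD1, which had at most 13 reads in a library.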

Other observations

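Genes of the HOXB cluster on chromosome 17, homeobox factors that mark position along the body axis, were listed after their values had been seen. Of 9 tested, 6 were lower in silenced than in lovastatin cells, with a median of -0.43. HOXB9 measured 16.6, 15.9 and 17.1 FPKM with lovastatin and 9.11, 9.83 and 9.68 FPKM with silencing (limma, -0.74 ± 0.06, adjusted p = 5.7e-05). HOXB8 measured 17.85 ± 1.91 FPKM against 9.73 ± 1.83 FPKM (SD, n = 3), with no overlap (-0.82), and HOXB4 differed by -0.70, HOXB7 by -0.60, HOXB6 by -0.43 and HOXB3 by -0.41. HOXB6 and HOXB3 kept their calls in 1 and 2 of 6 fits that left out a library. HOXB13, which lies apart from the others at the 5' end of the cluster, measured 6.41, 6.26 and 6.30 FPKM against 6.58, 6.07 and 6.78 FPKM and differed by 0.03 (adjusted p = 0.88). Genes of the cluster overlap antisense transcripts, with which they may share reads.

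Of 13 histone genes 4 were lower in silenced cells. HIST1H2AC measured 5.36, 4.96 and 3.97 FPKM against 2.62, 2.67 and 2.26 FPKM (-0.71 ± 0.10, adjusted p = 0.0015) and HIST1H2BD 11.39, 10.99 and 11.02 FPKM against 7.35, 5.92 and 7.24 FPKM (-0.64). HIST1H2BK (-0.71) and H1F0 (-0.39) kept their calls in 1 and 2 of 6 fits that left out a library, and HIST1H2BD in 5. Their CPT-11 levels were 2.87 FPKM for HIST1H2AC and 7.90 FPKM for HIST1H2BD. None of 13 mitochondrial mRNAs and none of 5 genes of other cell types passed in limma, none had an unadjusted p under 0.05 and voom called none. Over all tested genes 6.84% passed.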
